A study of Rattus norvegicus with 6 samples.

Results

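The cytosolic ribosomal protein genes are the genes for the proteins of the small (40S) and large (60S) subunits of the ribosome outside the mitochondria. They were taken by symbol, as every gene named Rpl or Rps with a number, together with the stalk genes Rplp0, Rplp1 and Rplp2 and without the Rps6k kinases. The rule matched 75 of the 15037 genes named on the array, each with a single probeset, and all 75 lay above the limit for dim genes. Of these, 24 are genes of the small subunit, 39 of the large subunit and 3 of the stalk, and 4 are known paralogues. The other 5 matches are the like-named genes Rpl27l2, Rpl36al1, Rpl37l1, Rpl39l1 and Rps12l4. RefSeq gives Rpl36al, Rpl39l and Rpl37 as earlier names of Rpl36al1, Rpl39l1 and Rpl37l1. Rpsa, a small-subunit gene without a number, falls outside the rule.

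Expression was measured on Affymetrix arrays in dermal blood vessel endothelial cells of 3 Il33 knockout rats (animals 28, 27 and 52) and 3 wildtype rats (34, 45 and 37), all Sprague-Dawley. Animals 52 and 37 were male and the others female. Abdominal skin was digested with collagenase and DNase, CD45+ and Lyve-1+ cells were depleted and CD31+ cells retained, in both genotypes alike. No age, drug treatment or deleted stretch of Il33 is stated by the labels, and the knockout is not described as limited to a cell type.

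A ribosome holds a single copy of nearly every ribosomal protein, so cells make these proteins in matched amounts. Their messenger RNAs are among the most abundant of a cell. Most of these RNAs begin with a terminal oligopyrimidine (TOP) tract, an unbroken run of C and U at the first base, through which the mTORC1 kinase and the protein LARP1 set their translation. A few proteins have paralogues with restricted expression. In bulk RNA of sorted cells, fewer cells of a type and less RNA per cell cannot be told apart.

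Values are log2 expression per probeset, so a difference of 1 is a doubling if that reading of the deposited scale holds. Probesets differ in how strongly they bind, so levels of different genes were not ranked against each other. Where 3 values stand against 3, the first are knockout 28, 27 and 52 and the second wildtype 34, 45 and 37, in that order. The highest value of an array lay between 19.70 and 19.93, and a gene at that ceiling cannot show a change. Il33, the deleted gene, was 8.07, 8.37 and 9.82 against 13.86, 16.32 and 16.60 (limma, adjusted p = 0.0438). Its adjusted p ran from 0.000842 to 0.654 over 18 alternatives and was under 0.05 in 10 of them, with the knockout lower in each of the 18. Markers of blood endothelium were high on every array, with a mean over 14 of 17 listed genes of 14.29 to 14.91, and Cdh5 was 19.62 to 19.71. Bacterial and phage control transcripts, which hold no rat RNA, had means of 10.12 to 10.42 on knockout 28, wildtype 34 and wildtype 45 and of 8.82 to 9.33 on the other arrays.

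No ribosomal protein gene passed the test between genotypes. The comparison asks whether loss of Il33 went with a change in the transcripts of the translation machinery of these cells. With limma, 0 of the 75 genes had an adjusted p under 0.05, where 0.00864% of the 11577 genes tested did, and 0 of 75 had an unadjusted p under 0.05, where 1.98% of all genes did. The smallest adjusted p among them was 0.999. The mean was lower in the knockout for 52 genes and higher for 23, or 69.3% lower, where 46.0% of all genes tested were lower. Their differences were small, with a median of -0.10 on the log2 scale against 0.03 over all genes tested. A difference past 0.5 in either direction was found for 9 of the 75 (19.9% of all genes), and past 1 for 2 (218 of the 11577 genes tested). The middle of their distribution ran from -0.29 (25th percentile) to 0.02 (75th percentile).

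That lean to lower values depended most on 1 animal, knockout 28. Without knockout 28 the median difference was 0.01 and 36 of 75 genes were lower (48.0%, against 43.3% of all genes). Without wildtype 34 the median was -0.05 and 46 of 75 were lower. Normalizing the arrays by quantiles again gave 63 of 75 lower with a median of -0.16. The share of all genes lower is not given here for these last settings, so their counts cannot be read as particular to the members. Nor does the absence of calls show that the transcripts were alike. The 95% limma interval of a member's difference extended 0.75 to either side in the median, and for 29 of the 75 genes it reached -1 or below.

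**Figure D1:**
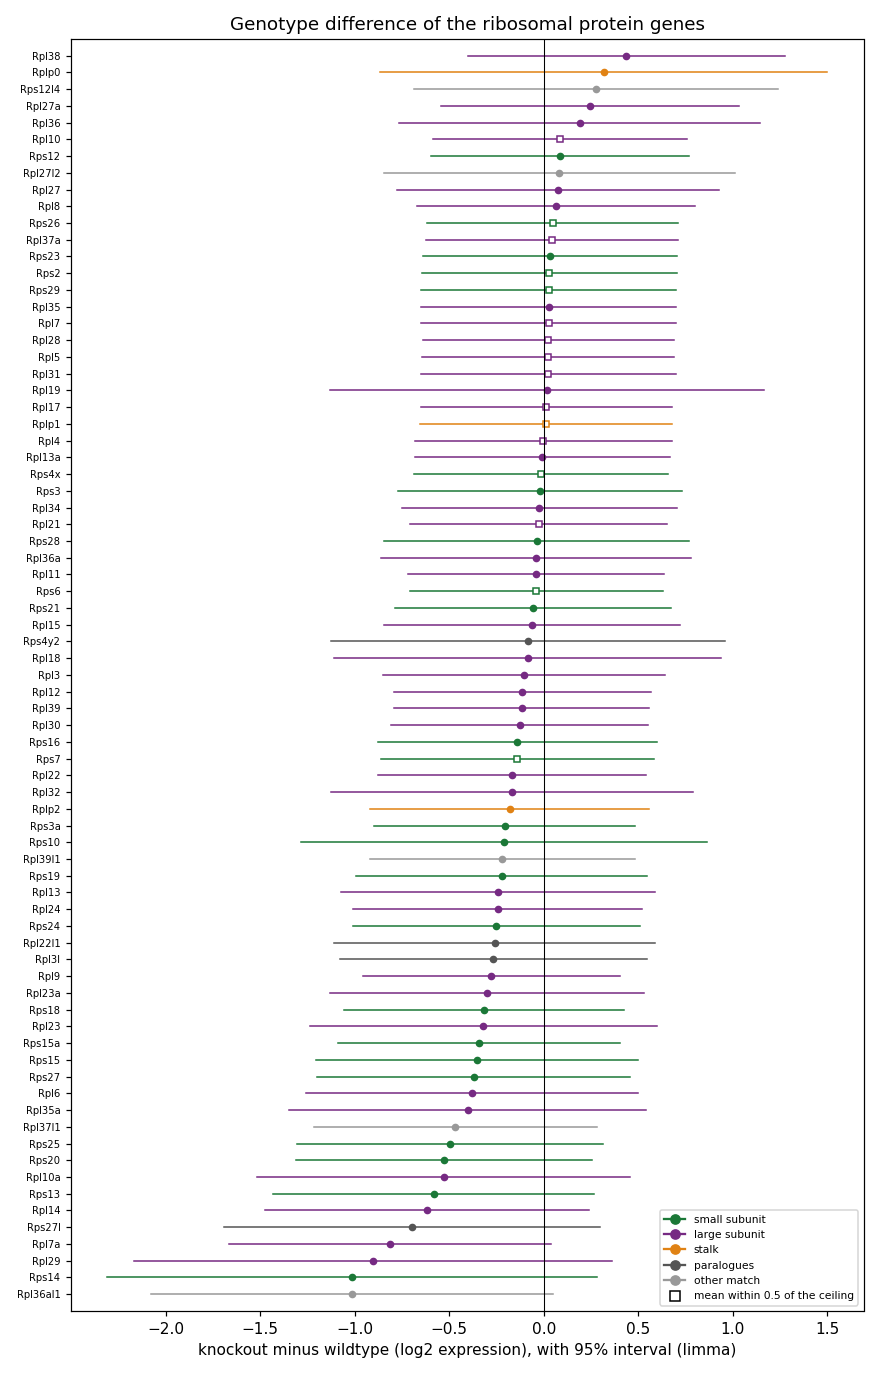
The knockout minus wildtype difference in log2 expression (horizontal axis) is shown for each of the 75 ribosomal protein genes (vertical axis, sorted) with its 95% limma interval, coloured by role, with open squares for the 16 genes near the ceiling. Points run from -1.01 for Rps14 and Rpl36al1 to 0.44 for Rpl38, and each of the 75 intervals includes 0.

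Many of these transcripts sat at the top of the scale of the arrays. The mean over the 6 arrays lay within 0.5 of the lowest array maximum for 16 members, which is 40.0% of the 40 genes tested that came so close. The margin stood at 19.20, with Rps7 just inside it at 19.38 and Rps21 just below it at 19.19. Rpl7 and Rps29 had the value of the array's own maximum on all 6 arrays, and Rpl31 differed from it by at most 0.01. For Rpl7 and Rps29 the values were 19.76, 19.78 and 19.93 against 19.76, 19.70 and 19.93. These genes repeat the ceiling of each array rather than a level of their own. Among the 16, 11 were higher and 5 lower in the knockout, with differences between -0.14 and 0.09. Others near the ceiling were Rps6, the protein phosphorylated by the S6 kinases (19.39 to 19.59 over the 6 arrays), and Rpl5, which with Rpl11 binds 5S ribosomal RNA and can restrain Mdm2 (19.64 to 19.76). Rpl11 itself lay below the margin at 17.74 to 18.00, with a difference of -0.04 (SE 0.30).

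Below the ceiling 59 members remained, and there 47 were lower and 12 higher in the knockout, with a median difference of -0.18 and an SD within genotype of 0.39 in the median. Small-subunit genes below the ceiling were lower in 16 of 18 cases, with a median of -0.24. Large-subunit genes below the ceiling were lower in 23 of 30, with a median of -0.12. None of these passed the test, and whether the subunits differ from each other was not tested. The probeset identifiers of 15 members name no chromosome. Of those 13 were lower, with a median of -0.28, against 39 of 60 with a median of -0.05 where a chromosome is named, a split chosen after the values were seen.

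The genotypes did not overlap for 5 of the 75 genes, or 6.67%, where 6.25% of all genes tested did not overlap. Of the 5, 4 were lower and 1 higher in the knockout, against 2.89% and 3.36% of all genes. Rpl7a, a large-subunit protein (probeset TSUnmapped00000054.rn.2), had 13.93, 13.61 and 14.38 against 15.37, 14.58 and 14.41. The lowest wildtype and the highest knockout value, those of both males, were only 0.03 apart. The difference was -0.81 (SE 0.38, 95% interval -1.67 to 0.04, limma, adjusted p = 0.999). Rpl9, at the base of the stalk of the large subunit, had 14.47, 14.70 and 14.75 against 14.94, 15 and 14.81. Its difference of -0.28 was small but its SD within genotype was 0.13, below the 0.29 of the median member. Rps3a of the small subunit was 17.23, 16.82 and 17.17 against 17.24, 17.28 and 17.32, so that knockout 28 and wildtype 34 were 0.01 apart. Rps26, which lies at the exit of the mRNA channel, was 19.76, 19.77 and 19.78 against 19.75, 19.69 and 19.73. It was the member with the smallest spread (SD 0.02), at the ceiling of the arrays. Rps27l, the remaining gene whose groups did not overlap, is described with the paralogues.

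**Figure D2:**
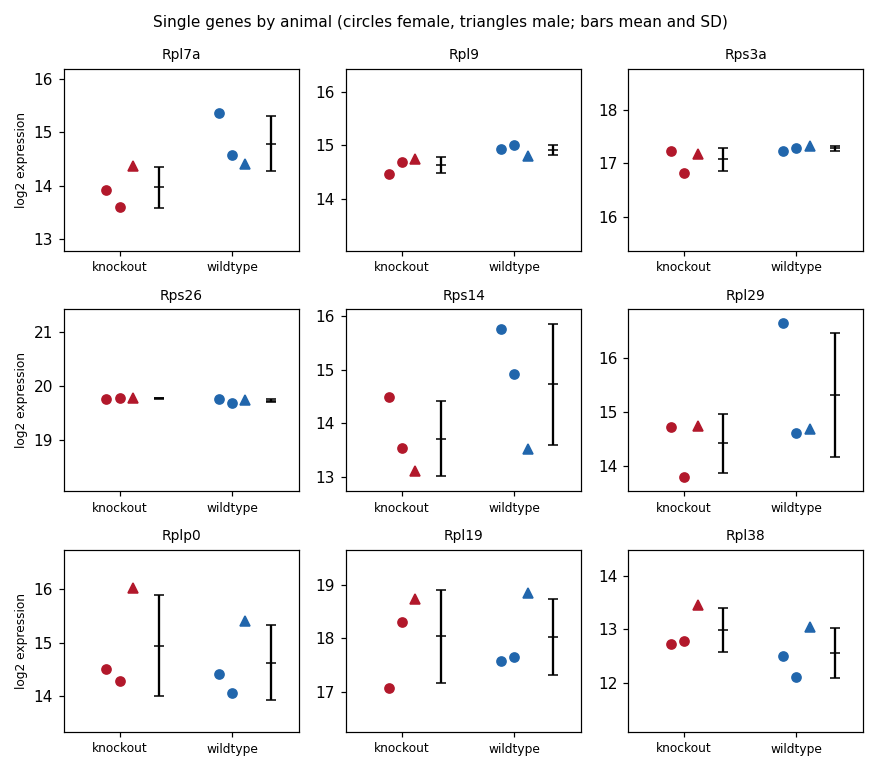
Log2 expression (vertical axis, a range of 3.4 in each panel) is shown for 9 ribosomal protein genes in each animal, knockout in red and wildtype in blue, circles for females and triangles for males, with bars for the mean and SD (n = 3). Rpl29 and Rps14 are highest in wildtype 34 at 16.66 and 15.75, while Rplp0 and Rpl19 are highest in both males.

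The largest differences between genotype means belonged to genes in which wildtype 34 stood above the rest. Rps14, a small-subunit protein whose loss impairs erythroid cells in humans, had 14.49, 13.54 and 13.11 against 15.75, 14.91 and 13.52. Its means were 13.71 ± 0.71 and 14.73 ± 1.13 (SD, n = 3 each), the groups overlapped, and the difference was -1.01 (SE 0.58, limma, adjusted p = 0.999). Rpl29 of the large subunit was 14.72, 13.78 and 14.74 against 16.66, 14.61 and 14.68. Only wildtype 34 lay above the knockout range there. Rpl36al1, a paralogue of Rpl36a, was 11.69, 11.21 and 11.17 against 13.19, 12.59 and 11.33. The male wildtype 37 fell inside the knockout range, and the female wildtypes lay above it. The probeset identifier of Rpl36al1 (TC1800000015.rn.2) names chromosome 18 while RefSeq places the gene on chromosome 6, so which copy it measures is uncertain. Of the 52 members with both a promoter entry and a chromosome in the identifier, the other 51 name the same chromosome. Ribosomal protein genes have many processed copies in mammalian genomes, and probes that match a copy cannot be told apart from the gene here. Over all 75 genes wildtype 34 exceeded the mean of the other 5 arrays by more than 1 in 8, of which 5 have a probeset that names no chromosome. The share of all genes tested with such an excess is not given here, so the count cannot be read as particular to these genes.

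Wildtype 34 and knockout 28 stood at opposite ends in these genes. Among the 59 members below the ceiling, wildtype 34 held the single highest value in 22 and the lowest in 0, where it was highest in 16.0% and lowest in 20.5% of all genes tested. Knockout 28 was lowest in 22 of the 59 and highest in 3, where it was lowest in 18.6% and highest in 13.8% of all genes tested. The median deviation of a member from its own mean was -0.18, -0.09 and 0.06 against 0.16, -0.08 and 0.04, so the groups overlap in this measure. In small-subunit genes below the ceiling the deviation of wildtype 34 reached 0.43, while the other 5 arrays lay between -0.23 and -0.03.

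**Figure D3:**
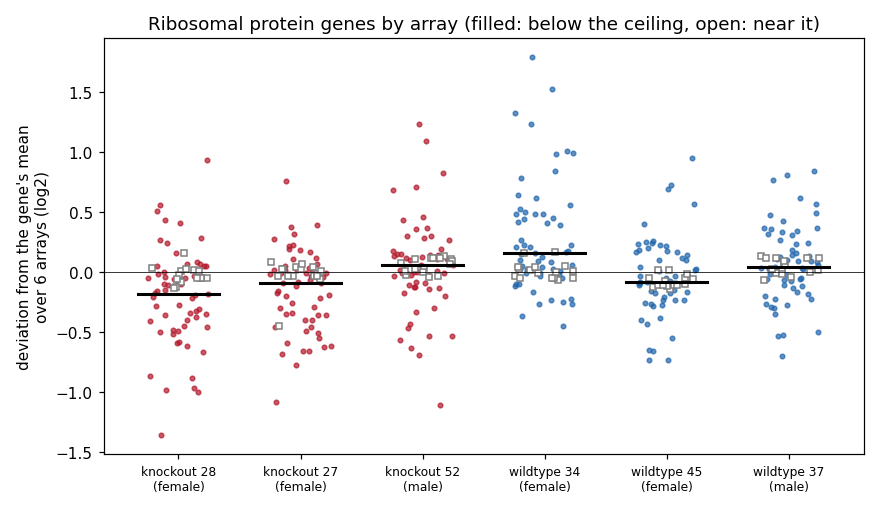
Each point is a ribosomal protein gene, plotted as its log2 deviation from its own mean over the 6 arrays (vertical axis) for each array (horizontal axis), with black bars for the median of the 59 genes below the ceiling and open squares for the 16 near it. The bar is highest for wildtype 34 at 0.16 and lowest for knockout 28 at -0.18.

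Markers of other skin cells were highest in wildtype 34 for keratinocytes, fibroblasts and leukocytes. Knockout 28, with the lowest ribosomal protein deviation, had the next highest means of these 3 lists. The keratinocyte list, of which 6 of 12 genes were measured, had means of 11.36, 8.42 and 8.21 against 13.76, 10.94 and 7.85, and 0 of the 6 genes lay under the limit for dim genes. Fibroblast markers, 8 of 9 measured, had a mean of 10.82 in wildtype 34 and of 8.08 to 9.20 elsewhere. Leukocyte markers, 10 of 11 measured and 2 of them dim, had a mean of 6.89 in wildtype 34 and of 5.14 to 5.81 elsewhere. Erythroid markers, 7 of 9 measured and 2 of them dim, had a mean of 9.52 in knockout 28 and of 6 to 7.44 elsewhere. Pericyte and smooth muscle markers had means of 9.46 to 11.26 and lymphatic markers of 5.99 to 9.66, while skeletal muscle, adipocyte and melanocyte lists were at 3.51 to 5.24 on every array. The part of these cells in the ribosomal protein values was not tested.

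Certain pairs of arrays gave nearly the same number for many of these genes. Knockout 28 and wildtype 34 agreed within 0.01 in 19 of the 75 members (25.3%), 13 of them to both decimals. Of the 19, 8 lay below the ceiling. Rpl12 was 16.52, Rps12 16.51, Rps23 18.08 and Rpl34 18.65 on both of these arrays. Yet the same pair lay at 14.72 and 16.66 in Rpl29 and at 6.91 and 8.75 in Rps27l. The males, knockout 52 and wildtype 37, agreed within 0.01 in 9 members (12%), and the other 13 pairs did so in 0 to 7. Among 676 other genes with a mean above 12, the shares for these pairs were 5.03% and 6.07%, against 0.74% to 2.66% for the other pairs. Each of these pairs holds a knockout and a wildtype animal.

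The spread between animals in the median member was below the median over all genes tested. The members were also brighter, with a median level of 16.47 against 6.06, and the genes were not matched for level. The SD within genotype was 0.29 in the median over the 75 members, against 0.47 over all genes tested and 0.30 over the 20 translation factors and other genes with TOP transcripts. It was 0.09 for the 16 near the ceiling. Closeness to the ceiling goes with part of this, since the median was 0.39 for the members below it. Rps14, Rpl29, Rplp0 and Rpl19 varied most, with SDs of 0.94, 0.91, 0.83 and 0.79. Least variable were Rps26, Rpl37a, Rpl17 and Rpl28, with SDs of 0.02 to 0.04 at means of 19.73 to 19.75. Members below the ceiling that varied little included Rps23 (SD 0.09) and Rpl35 (SD 0.10), chosen after their values were seen. Because limma draws each gene's spread towards that of all genes, the SE of the difference was at least 0.30 even for these. Mitochondrial ribosomal protein genes, named Mrpl or Mrps, had a median SD of 0.45 over 65 genes and a median difference of -0.14. Of the 65, 42 were lower (64.6%, against 46.0% of all genes). Limma called 0, and 2 had an unadjusted p under 0.05 (3.08%, against 1.98% of all genes).

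**Figure D4:**
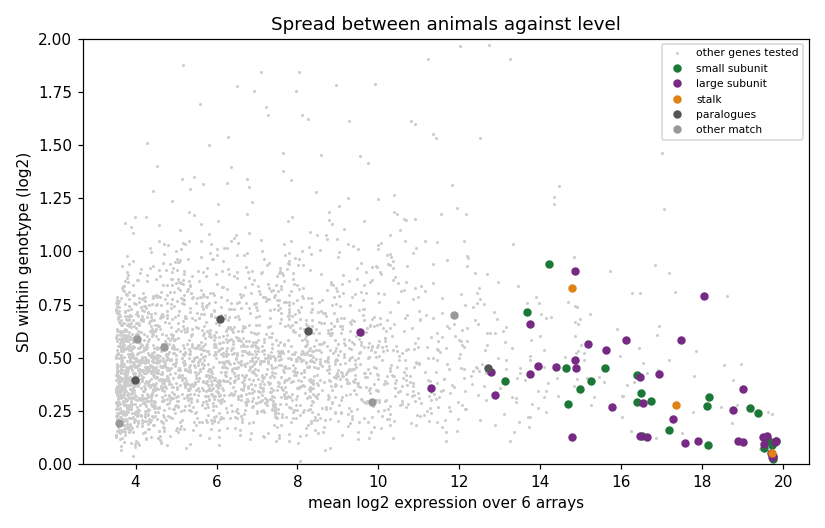
The SD within genotype (vertical axis, log2) is plotted against the mean log2 expression over the 6 arrays (horizontal axis) for the 75 ribosomal protein genes, coloured by role, over every 4th of the other genes tested (2876 grey points, of which 10 lie above the axis limit of 2). Most coloured points lie to the right, and those near the ceiling fall to SDs of 0.02 to 0.24.

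The stalk proteins recruit the elongation factors to the large subunit. Rplp0, their anchor on the ribosome, was 14.51, 14.29 and 16.02 against 14.42, 14.05 and 15.40. Both males lay above all 4 females, and the genotypes overlapped, with a difference of 0.32 (SE 0.53). Rplp1 was 19.66 to 19.79, within the margin of the ceiling. Rplp2 was 17.32, 17.06 and 17.41 against 17.84, 17.24 and 17.25, with its highest value in wildtype 34 and a difference of -0.18 (SE 0.33).

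Sex was the other label that differed between animals, with 2 males and 4 females balanced over genotype. With genotype and sex in the model, 0 of 75 members were called between males and females, where 0.0259% of all genes were. An unadjusted p under 0.05 was found for 7 members (9.33%), where 18.6% of all genes had one. Rplp0 had the smallest p, with a mean of 15.71 in the males and 14.32 in the females and a difference of 1.39 (SE 0.32, limma, adjusted p = 0.117). Rps14 was lower in males by a difference of -1.36 (SE 0.42, limma, adjusted p = 0.164), and Rpl19 was higher by 1.14 (SE 0.39, adjusted 0.185). Rpl18 differed by 0.98, Rpl38 by 0.71, Rpl36al1 by -0.92 and Rpl27l2 by -0.79, with adjusted p from 0.203 to 0.266. All 7 were named after their values were seen. For 29 members (38.7%) the sexes did not overlap, where 31.7% of all genes did not overlap. Both males were higher in 24 members and lower in 5, against 23.4% and 8.29% of all genes. Of the 24, 7 lay near the ceiling, and the array maximum was 19.93 in both males and 19.70 to 19.78 in the females. Below the ceiling both males were higher in 17 and lower in 4 of 59 members. The males also had the lowest signal of the control transcripts, 8.82 and 8.91, against 9.33 to 10.42 in the females. In knockout 27, the female at 9.33, these 7 genes were mixed. Rplp0 at 14.29 and Rpl18 at 13.65 lay within the range of the other females. Rps14 at 13.54 and Rpl36al1 at 11.21 lay below the other females and close to the males. Rpl19 at 18.31 and Rpl38 at 12.79 lay between the other females and the males, and Rpl27l2 at 5.46 lay above all other arrays. The part of the control signal in the differences between the sexes was not tested. The males are also 1 of the pairs of arrays with many near-equal values, so sex and anything else shared by that pair cannot be told apart. The interaction of genotype and sex was called for 0 of 75 members and for 0% of all genes. At an unadjusted p under 0.05 it was found for 0 of 75, against 1.03% of all genes.

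Paralogues replace or accompany a core ribosomal protein in certain tissues. Rps27l, a relative of Rps27 that p53 can induce, was 6.91, 8.45 and 8.40 against 8.75, 8.52 and 8.58. The groups did not overlap, but 5 of the 6 values lay between 8.40 and 8.75 and knockout 28 alone was far below. Its difference was -0.70 (SE 0.44, limma, adjusted p = 0.999), and without knockout 28 it was -0.19. Rpl22l1, the paralogue of Rpl22, was 12.38, 12.93 and 12.40 against 12.48, 12.54 and 13.47, highest in the male wildtype. Rpl3l, a muscle form of Rpl3, was 3.52 to 4.40 over the 6 arrays. Rpl39l1, known as a testis form of Rpl39, was 3.17 to 3.76. Both lay near the limit for dim genes, and Rps12l4 (3.71 to 5.14) and Rpl27l2 (4.17 to 5.46) were little above it. Rps4y2, related to Rps4x, was 5.35 to 6.92 with overlapping groups. Rpl37l1 was 9.64, 9.22 and 9.94 against 9.86, 10.08 and 10.26, with a difference of -0.47 (SE 0.33).

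The log2 ratio of paralogue to core gene was formed within each array for 6 pairs. The ratio of Rpl36al1 to Rpl36a differed most, at -4.18, -5.62 and -5.43 against -3.36, -4.12 and -4.83. Its genotype difference was -0.97 (exact permutation p = 0.2, two-sided, adjusted 1 over the 6 pairs), and the groups overlapped. The ratio of Rps27l to Rps27 was -9.90 in knockout 28 and between -8.07 and -7.45 in the other 5 arrays, with a difference of -0.33 (exact permutation p = 1). The other 4 ratios differed by -0.16 to -0.07. The smallest p that 3 against 3 animals allow is 0.1, so none could pass. A ratio of 2 genes does not show which of them changed. Rps4x lay near the ceiling (19.61 to 19.81), so its ratio can follow only Rps4y2, and Rpl3l and Rpl39l1 lay near the limit for dim genes, where the size of a difference is uncertain.

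**Figure D5:**
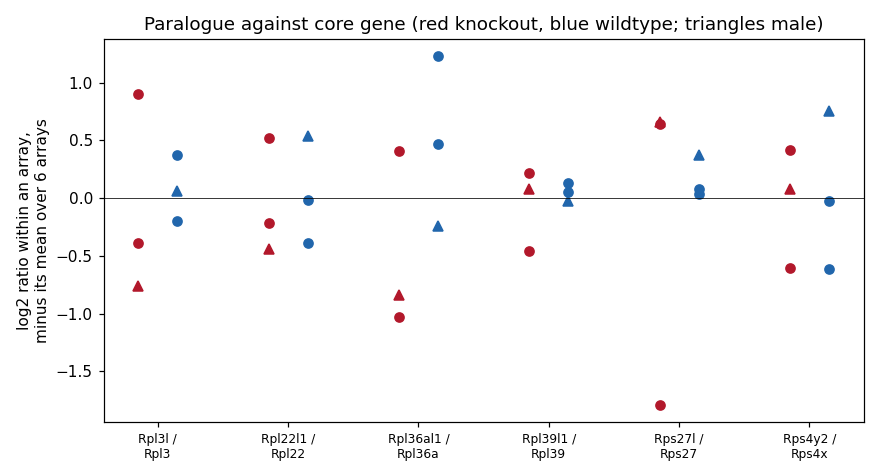
The log2 ratio of each paralogue to its core gene, minus its mean over the 6 arrays (vertical axis), is shown for 6 pairs (horizontal axis) in each animal, red for knockout, blue for wildtype, triangles for males. The lowest point is knockout 28 in the pair of Rps27l and Rps27, and the colours overlap in each of the 6 pairs.

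Runs of C and T at the annotated start were common among the core genes. RefSeq windows on build GRCr8 were found for 64 of the 75 members, and the longest unbroken run of C and T with a base within 10 of the annotated start was measured. The run was 10 bases in the median over the 64, against 4 over 33469 promoters. A run of at least 8 was found in 41 of 56 core genes (73.2%), in 3 of 8 paralogues and other matches, and in 13.2% of all promoters. The 6 pairs of a core gene and its paralogue, whose runs differ in length, and the stalk genes are shown from 20 bases before to 20 bases after the annotated start, 5′ to 3′ on the strand of the gene, with that run in capitals.
Rps27, chr2:177964587-177964626, minus strand: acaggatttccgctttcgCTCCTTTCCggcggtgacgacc
Rps27l, chr8:76443638-76443677, plus strand: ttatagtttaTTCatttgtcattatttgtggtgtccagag
Rpl22, chr5:168117941-168117980, plus strand: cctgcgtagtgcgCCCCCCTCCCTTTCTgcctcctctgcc
Rpl22l1, chr2:113683176-113683215, plus strand: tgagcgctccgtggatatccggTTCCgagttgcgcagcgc
Rpl39, chrX:121195877-121195916, minus strand: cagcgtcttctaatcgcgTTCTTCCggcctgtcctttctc
Rpl39l1, chr10:5966602-5966641, minus strand: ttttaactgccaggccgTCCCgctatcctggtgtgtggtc
Rpl3, chr7:113507971-113508010, minus strand: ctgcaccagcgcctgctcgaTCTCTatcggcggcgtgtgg
Rpl3l, chr10:14258426-14258465, plus strand: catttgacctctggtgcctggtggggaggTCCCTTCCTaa
Rps4x, chrX:71342902-71342941, minus strand: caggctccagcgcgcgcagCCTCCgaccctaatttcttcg
Rps4y2, chr4:183000893-183000932, plus strand: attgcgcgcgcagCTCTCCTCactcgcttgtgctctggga
Rpl36a, chrX:102059429-102059468, plus strand: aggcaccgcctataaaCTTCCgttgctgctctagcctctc
Rpl36al1, chr6:93392239-93392278, minus strand: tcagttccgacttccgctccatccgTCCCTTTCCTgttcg
Rplp0, chr12:46718371-46718410, minus strand: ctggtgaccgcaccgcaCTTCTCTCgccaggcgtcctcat
Rplp1, chr8:71290853-71290892, minus strand: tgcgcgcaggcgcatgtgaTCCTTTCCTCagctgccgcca
Rplp2, chr1:205975901-205975940, plus strand: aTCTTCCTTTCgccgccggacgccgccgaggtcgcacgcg

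The run was longer in the core gene in 3 of the 6 pairs and longer in the paralogue in the other 3. In Rps27 a run of 9 bases spans the annotated start, and in Rps27l the longest run near it has 3. Rpl22 has a run of 15 and Rpl22l1 of 4, and Rpl39 has 7 and Rpl39l1 has 4. The order is turned for Rpl3, with a run of 5 against 9 in Rpl3l, and for Rps4x, with 5 against 8 in Rps4y2. In Rpl36al1, which was highest in the female wildtypes, the run of 10 begins at base 6 of the annotated transcript. Its partner Rpl36a has a run of 5. The probeset of Rpl36al1 names chromosome 18 and this promoter lies on chromosome 6, so whether the values belong to it is uncertain. Rplp0, which was high in both males, and Rplp1, at the ceiling, have runs of 8 and 10 that span the start, while the run of 10 in Rplp2 ends before it. The hexamer CTTTCC was searched within 30 bases on either side of the start, on both strands. It was found on the strand of the gene in 18 of the 64 members (28.1%) and on the other strand in 1, against 2.59% and 2.78% of all promoters. CCGGAA, the core of sites bound by ETS factors, was found on either strand in 10 members (15.6%) and in 5.28% of all promoters. Its reverse complement TTCCGG overlaps the first hexamer in CTTTCCGG, which 3 members hold. A match is a description of these letters and not a binding site. Core genes below the ceiling with a run of at least 8 had a median genotype difference of -0.24 over 29 genes, with 23 lower. Those with a shorter run had -0.11 over 13 genes, with 11 lower. With the genes near the ceiling included the order turned, at -0.04 over 41 genes with a run of at least 8 and -0.10 over 15 with a shorter run, and the contrast was not tested.

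Other genes of the translation machinery did not pass the test either. Of 20 translation factors and other genes with known TOP transcripts, 0 were called by limma and 0 had an unadjusted p under 0.05, 7 were higher and 13 lower, with a median difference of -0.06. Eef1a1 and Eef2, the elongation factors, and Tpt1 were at 19.37 to 19.93 over the 6 arrays. Like Rpl7 and Rps29, Eef1a1 equalled the maximum of each array. Of 37 ribosome assembly genes, 0 were called by limma and 1, Emg1, had an unadjusted p under 0.05 (2.70%, against 1.98% of all genes), 16 were higher and 21 lower, with a median of -0.06. Ncl, a nucleolar protein, was 14.75 ± 0.15 in the knockout and 14.61 ± 0.51 in the wildtype (SD, n = 3 each). Emg1, an enzyme of 18S ribosomal RNA maturation, was named after its value was seen and was 5.64, 6.14 and 6.81 against 7.27, 7.21 and 7.55, without overlap, with a difference of -1.15 (limma, adjusted p = 0.999). Nop58 of the box C/D particles was 12.08 ± 0.997 and 12.16 ± 1.10, and Eif6, which keeps the subunits apart, 11.71 ± 0.19 and 11.79 ± 0.60. The list for mTORC1 and the S6 kinases, which also holds Myc, had 14 genes tested. Of these 0 were called by limma and 0 had an unadjusted p under 0.05. Their median difference was 0.02, with 7 higher and 7 lower. Myc, a driver of ribosome production, was 15.73 ± 0.48 and 15.04 ± 1.34, Rps6ka3 12.83 ± 0.54 and 12.71 ± 0.41, and Rheb 11.53 ± 0.18 and 11.47 ± 0.62.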

How the data were processed

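Per the submitters' processing notes, the authors ran RMA in Expression Console, and its output is read here as log2 values, 1 per probeset and array. RMA corrects background, equalises arrays and summarises probes, so a change shared by most genes can be lost. The deposited arrays were not fully equal, with medians over all probesets of 4.63 to 4.78. Over all genes tested the median deviation from a gene's own mean was 0.12 in both males and -0.10 to -0.01 in the females. The version, probeset library and build of that step: not given in the sources used here. The members and gene lists were chosen with earlier results of these data known.

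The table holds 24834 probesets, 1646 of them controls. Of the others 15049 have 1 gene symbol, 0 several, and 8139 are unnamed here. For 10 genes with several probesets the brightest was taken. Dim genes, whose mean lay below the 25th percentile of the non-control probesets, were dropped, and 11577 remained. Genotypes were compared in limma 3.58.1 (R 4.3.3) over all 6 arrays, with Benjamini-Hochberg adjustment over all genes and a threshold of 0.05. The number of arrays limits the precision. The scripts were tested on simulated data. The alternatives were other filters, scalings, covariates and tests, and leaving out each array.

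Named were Il33, members called or with groups that did not overlap (up to 8 a direction), the stalk and paralogues, unlisted matches, the 4 largest and 4 smallest SDs, the 3 highest and 3 lowest means, and 3 genes of highest mean per pathway list.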

Additional observations from a re-analysis of the deposited data

How the results depend on the processing

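With 1 array left out the count of ribosomal protein genes called stayed 0, the count lower in the knockout ran from 36 to 62, their median difference from -0.18 to 0.012 and their median SD from 0.244 to 0.330. Without genes near the ceiling the median SD was 0.391. Calls between sexes and of the interaction stayed 0 under the alternatives run, and the paralogue ratios could not be called in this design. Of 693 values of 48 gene results, 617 kept direction and side of the threshold, 68 changed sign and 8, all of Il33, no longer passed. The cause was not tested. Normalizing by quantiles again turned the sign for Rplp1 (-0.020), Rpl19 (-0.047), Rpl17 (-0.019), Rpl28 (-0.004), Rpl31 (-0.001), Eef2 (-0.003), Rps6ka3 (-0.012), Rheb (-0.078), the ratio of Rps4y2 to Rps4x (0.012). The control transcript mean as a covariate turned the sign for Rplp1 (-0.004), Rpl19 (-0.33), Rpl7 (-0.015), Rps29 (-0.015), Rpl31 (-0.018), Eef1a1 (-0.015), Eef2 (-0.017), Rps6ka3 (-0.092), Rheb (-0.061). Females alone turned the sign for Rpl22l1 (0.14), Rps4y2 (0.22), Rps12l4 (-0.15), Ncl (-0.050), Eif6 (0.17). Array weights turned the sign for Rps4y2 (0.16), Nop58 (0.12), Eif6 (0.021). With 1 array left out, genotype differences that changed sign ran over these ranges: -0.22 to 0.70 for Rplp0, -0.018 to 0.047 for Rplp1, -0.28 to 0.018 for Rplp2, -0.44 to 0.060 for Rpl22l1, -0.47 to 0.32 for Rps4y2, -0.28 to 0.37 for Rpl27l2, -0.20 to 0.52 for Rps12l4, -0.33 to 0.50 for Rpl19, -0.008 to 0.027 for Rpl17, -0.027 to 0.093 for Rpl7, -0.027 to 0.093 for Rps29, -0.027 to 0.090 for Rpl31, -0.027 to 0.093 for Eef1a1, -0.025 to 0.097 for Eef2, -0.068 to 0.017 for Tpt1, -0.14 to 0.36 for Ncl, -0.71 to 0.44 for Nop58, -0.28 to 0.27 for Eif6, -0.17 to 0.36 for Rps6ka3, -0.29 to 0.26 for Rheb, -0.24 to 0.10 for the ratio of Rpl39l1 to Rpl39, -0.74 to 0.49 for the ratio of Rps27l to Rps27, -0.40 to 0.29 for the ratio of Rps4y2 to Rps4x, -0.66 to 0.18 for the ratio of Rpl3l to Rpl3, -0.38 to 0.15 for the ratio of Rpl22l1 to Rpl22. No paired analysis was run, because the genotypes share no animal number and the labels name no other pairing. The pairs of arrays with many near-equal values each hold a knockout and a wildtype animal. Those arrays were not fitted as pairs, so the effect of such a fit on the genotype differences was not tested. The count of lower genes, the ratio pairs by earlier symbol and the genes named for sex were chosen after seeing the data.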
